A study of Homo sapiens with 16 samples.

Results

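The snoRNA host genes SNHG1, SNHG3, SNHG5, SNHG6, SNHG7, SNHG8, SNHG12, SNHG15, SNHG16 and GAS5 were followed in pancreatic cancer cells given gemcitabine, genistein or both. These 10 genes, out of 63677 identifiers in the count table, were picked by name, and SNHG3 was among them because it was known to show a drug interaction in these data. That interaction is computed from all 4 groups of a line, controls included, so SNHG3 is described without a test throughout, and the members tested and counted are the other 9. The members and the lists compared below were chosen with earlier results of these data known, which limits each count set beside all genes. All 10 members passed the filter on low counts in both lines, with 89 to 5695 reads per gene and library.

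MiaPaCa2 and PANC1 (Mia-PaCa-2 and PANC-1 in the sample labels) are established human lines from pancreatic ductal adenocarcinomas. Each line was kept without drug or was exposed to 40 nM gemcitabine, 50 uM genistein or both drugs, for 24 hours. Gemcitabine is a nucleoside analogue that interferes with DNA replication, and genistein is a soy phytoestrogen. Whether the controls received DMSO, in which the study prepared genistein, is not in the labels, so untreated here means without drug. Each of the 8 groups has 2 replicates, I and II, which makes 16 libraries, and the study calls them biological replicates. Total counts ran from 12943482 to 31991860 reads per library, of which the 10 host genes took 0.0405% to 0.0951%. Keratins KRT8, KRT18 and KRT19 were high in both lines, whereas the epithelial markers EPCAM and CDH1 reached at most 0 and 2 reads in MiaPaCa2 and 443 and 634 reads in PANC1. Of 9 markers of leukocytes, endothelium and fibroblasts, 6 stayed at or below 4 reads in every library; the exceptions reached 1.05 CPM, the count scaled to library size (CD68, in PANC1), 8.03 (CDH5, in MiaPaCa2) and 4.11 (COL3A1, in PANC1). In deposited FPKM the leukocyte markers summed to 14.2 to 19.7 in untreated MiaPaCa2, 26.8 to 27.0 with gemcitabine, 34.7 to 35.7 with genistein and 32.1 to 37.6 with both. The same sum was 108.4 to 129.6 in untreated PANC1, 160.6 to 165.2 with gemcitabine, 156.2 to 179.0 with genistein and 212.6 to 221.2 with both. That sum is almost wholly CD68, which had at most 17 reads, since PTPRC and CD3E had at most 1, and its part in the results was not tested.

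On GRCh37, all 10 genes are annotated as long noncoding RNA genes. SNHG3 lies at chr1:28832492-28837404 on the plus strand and SNHG12 at chr1:28905050-28909644 on the minus strand. SNHG1 lies at chr11:62619450-62623425 (minus), SNHG15 at chr7:45022618-45026560 (minus) and GAS5 at chr1:173827697-173838020 (minus). SNHG5 lies at chr6:86360209-86388650 (minus), SNHG16 at chr17:74553809-74667067 (plus) and SNHG8 at chr4:119199858-119206471 (plus). SNHG7 lies at chr9:139615818-139622636 (minus) and SNHG6 at chr8:67832796-67838633 (minus).

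A snoRNA host gene is transcribed as a long precursor whose introns carry small nucleolar RNAs. The spliced exons often encode no protein, while the intron-borne snoRNAs guide chemical modification of ribosomal and spliceosomal RNA or take part in cutting the ribosomal precursor. Many spliced host transcripts, GAS5 being the best known, begin with a pyrimidine tract like that of ribosomal protein messengers and are degraded by nonsense-mediated decay when they are translated, so that their level can follow translation as well as transcription. Poly-A selected libraries read the spliced host far better than the mature snoRNA, which has no poly-A tail.

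The first bases of the host transcripts are shown because a pyrimidine tract, where there is one, lies there. RefSeq start windows were matched for 8 of the 10 genes (not for SNHG6 and SNHG15). Each line gives 20 bases before and 20 bases from the annotated start, on the GRCh38.p14 build, with the longest run of C and T letters in capitals (in SNHG1, whose window has a second run of the same length after the start, the first).
SNHG1, chr11:62855866-62855905, minus strand: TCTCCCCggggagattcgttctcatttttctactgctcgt
SNHG3, chr1:28505923-28505962, plus strand: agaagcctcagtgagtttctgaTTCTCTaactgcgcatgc
SNHG5, chr6:85678714-85678753, minus strand: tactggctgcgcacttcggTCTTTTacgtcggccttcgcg
SNHG7, chr9:136728165-136728204, minus strand: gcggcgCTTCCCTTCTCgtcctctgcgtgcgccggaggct
SNHG8, chr4:118278742-118278781, plus strand: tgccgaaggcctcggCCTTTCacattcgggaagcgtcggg
SNHG12, chr1:28581854-28581893, minus strand: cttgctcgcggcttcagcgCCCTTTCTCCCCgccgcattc
SNHG16, chr17:76557744-76557783, plus strand: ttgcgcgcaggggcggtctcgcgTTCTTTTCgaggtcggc
GAS5, chr1:173869026-173869065, minus strand: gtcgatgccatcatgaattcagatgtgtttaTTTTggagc
A run of at least 5 C or T letters on the sense strand was present in 7 of the 8 windows. It was present in 58.9% of all 35116 windows, so the run by itself is common. In SNHG1 and SNHG7 the marked run lies wholly before the listed start, thus outside the transcript from that start. A start at C followed by 4 pyrimidines was found in SNHG5 and SNHG12, thus in 2 of 8 windows against 4.07% of all windows. The RefSeq start listed for GAS5 shows no such tract, with A as its first base and no run of over 4. The letters CACGTG, which read the same on both strands, occurred within 250 bases before to 50 bases after the start in 1 of 8 genes, SNHG7, against 7.26% of all promoters. These matches describe the listed starts only.

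Small nucleolar RNA genes inside the hosts are shown next, since they are what these genes are known to carry. In the annotation used here they were SNORA73B in an intron of SNHG3, SNORD99 in an intron of SNHG12 and SNORD1B in an intron of SNHG16. SNORD78 lay in GAS5 within an exon of an annotated transcript. The annotation lists no snoRNA gene inside SNHG1, SNHG5, SNHG6, SNHG7, SNHG8 or SNHG15. Most snoRNAs known from these hosts were thus not found, and the list is incomplete. The GRCh37 sequences are written as RNA-sense DNA, with the first GATG and the last CTGA of the box C/D snoRNAs, where their boxes C and D have their core letters, and the last ACA of SNORA73B in capitals.
SNORA73B, chr1:28835071-28835274, plus strand: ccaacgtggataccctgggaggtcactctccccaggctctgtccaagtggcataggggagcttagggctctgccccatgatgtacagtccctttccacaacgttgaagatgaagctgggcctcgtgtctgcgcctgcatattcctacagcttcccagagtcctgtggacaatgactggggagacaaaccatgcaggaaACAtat
SNORD99, chr1:28905261-28905334, minus strand: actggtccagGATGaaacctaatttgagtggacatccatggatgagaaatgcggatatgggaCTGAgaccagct
SNORD1B, chr17:74557191-74557274, plus strand: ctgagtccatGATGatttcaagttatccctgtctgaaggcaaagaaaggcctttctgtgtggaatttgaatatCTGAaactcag
SNORD78, chr1:173834760-173834824, minus strand: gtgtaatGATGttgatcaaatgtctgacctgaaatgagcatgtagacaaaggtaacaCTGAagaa
Reads on the snoRNAs listed were few. SNORA73B had 6 to 59 reads per library, SNORD99 3 to 20 and SNORD78 1 to 22, while SNORD1B had at most 3 reads and none in 11 of 16 libraries. Changes of these snoRNAs were not tested on so few reads, and those not listed were not read. The values that follow are those of the hosts.

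Where host genes lie over other genes, reads can belong to either. The library kit keeps strand, but the strand setting of the counting is not given in the sources used here. Exon bases of SNHG6 overlapped those of MCMDC2 on the opposite strand over 58.9% of their length, SNHG8 those of PRSS12 over 37.6%, SNHG7 those of DIPK1B over 30.3% and SNHG16 those of ENSG00000284526 over 28.5%. A smaller overlap was that of SNHG3 with RCC1 on the same strand (5.92%). SNHG5 shared 7.48% with ENSG00000271793 and 5.67% with PKMP3 on the same strand. These are shares of exon bases, and the share of reads affected was not measured.

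Reads per gene were used as the measure of change, as CPM, the count scaled to library size with TMM factors, and the plot of CPM by library shows all 160 values. A member was called where the p adjusted over all genes tested was 0.05 or less, the log2 change was 0.4 or more in size, and the mean FPKM of the treated group (of either line, between lines) was over 1. Where groups of 2 libraries are said not to overlap, this is common: over all genes it held for 69.1% with gemcitabine in MiaPaCa2 and 52.0% in PANC1, 56.2% and 47.7% with genistein, 47.2% and 44.1% with both drugs against gemcitabine alone, and 79.2% between the untreated lines.

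**Figure D1:**
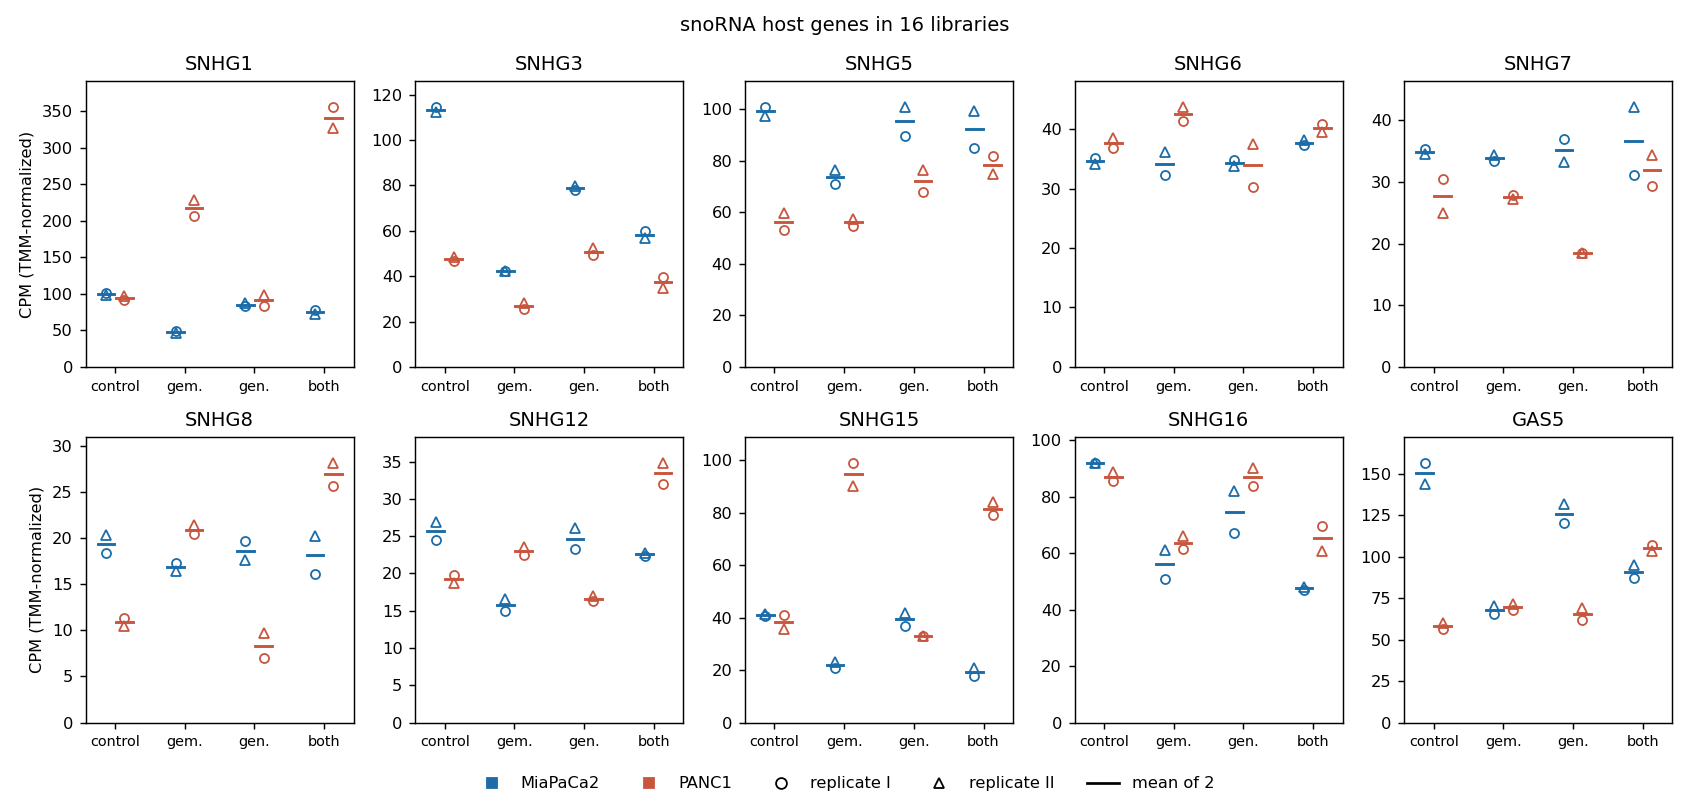
CPM of each snoRNA host gene (vertical axis, linear from 0, 1 panel per gene) in the control, gemcitabine (gem.), genistein (gen.) and both-drug groups of MiaPaCa2 (blue) and PANC1 (red), with circles for replicate I, triangles for replicate II and a bar at the mean of 2. With gemcitabine, SNHG1 and SNHG15 lie below control in MiaPaCa2 and above control in PANC1, whereas SNHG3 lies below control in both lines.

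SNHG3, the host of the U17 snoRNAs that act in cutting the ribosomal precursor, had its highest level in untreated MiaPaCa2. In that line it stood at 114.5 and 112.1 CPM in the control replicates, 42.3 and 42.3 with gemcitabine, 77.9 and 79.9 with genistein, and 59.7 and 56.6 with both drugs. The 4 groups did not overlap, and the order was control, genistein, both drugs, gemcitabine. In PANC1 the values were 46.7 and 48.6 CPM in control, 25.3 and 28.1 with gemcitabine, 49.5 and 52.2 with genistein, and 39.5 and 34.9 with both drugs. There the genistein libraries lay just above the control libraries, and the both-drug libraries lay between gemcitabine and control.

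In MiaPaCa2 the log2 difference of SNHG3 from control was -1.47 ± 0.09 (SE) with gemcitabine, -0.53 ± 0.09 with genistein and -1.02 ± 0.09 with both drugs. The changes with the single drugs add up to -2.01, which is 0.98 ± 0.13 lower than the change with both. In PANC1 the differences were -0.79 ± 0.13, 0.13 ± 0.13 and -0.34 ± 0.13, and the change with both drugs exceeded the sum of the single drugs by 0.32 ± 0.19. These values include the interaction for which SNHG3 was chosen. The main isoform of SNHG3 in the deposited isoform values, ENST00000413987 (2201 bases), had 36.1 and 36.1 FPKM in untreated MiaPaCa2, 14.0 and 15.01 with gemcitabine, 22.4 and 24.8 with genistein and 21.5 and 18.7 with both.

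The likeness of other genes to SNHG3 was measured as the root mean square difference of log2 CPM over the 8 group means, each line centred on its own mean, among 12803 genes. The 5 most alike were RP11-367J7.4 (0.144), ZNF580 (0.173), SLC6A9 (0.177), NPM1P29 (0.187) and RP11-489C13.1 (0.191). SNHG16 came closest among the host genes, at 0.242 and rank 47. SNHG1 was the least alike host gene, at 0.792.

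Gemcitabine lowered most snoRNA host genes in MiaPaCa2. Of the 9 tested, 6 were called and all 6 fell, beside 29.6% of all 16064 genes called in either direction and 14.6% called lower. The median log2 change of the 9 was -0.75, beside -0.01 for all genes.

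GAS5, the growth arrest gene that hosts many box C/D snoRNAs, had 157 and 144 CPM in the control replicates and 65.5 and 70.3 with gemcitabine. The groups did not overlap, and GAS5 fell by 1.20 ± 0.10 on the log2 scale (limma-voom adjusted p = 5.25e-06). SNHG1, another host of several box C/D snoRNAs, had 100.6 and 98.6 CPM in control and 48.9 and 47.1 with gemcitabine. It fell by 1.11 ± 0.10 (adjusted p = 8.87e-06), again with no overlap. SNHG15 had 40.7 and 41.2 CPM in control and 21.0 and 23.0 with gemcitabine, and fell by 0.95 ± 0.12 (adjusted p = 9.33e-05).

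SNHG16, which carries the SNORD1 family, stood at 92.1 and 92.0 CPM in control and at 51.0 and 61.1 with gemcitabine. It fell by 0.78 ± 0.12 (adjusted p = 0.000355). SNHG12 had 24.5 and 27.0 CPM against 14.99 and 16.6 and fell by 0.75 ± 0.13 (adjusted p = 0.000697). SNHG5, the host of the SNORD50 pair, fell the least of the 6, from 100.9 and 97.4 to 71.1 and 76.5 CPM, by 0.48 ± 0.10 (adjusted p = 0.00311). With a correction for GC content this was -0.24 (adjusted p = 0.0655), which ended the call of SNHG5.

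Values of SNHG6, SNHG7 and SNHG8 did not pass the test in this comparison. Their log2 differences were -0.08 ± 0.11, -0.10 ± 0.13 and -0.25 ± 0.14, with adjusted p of 0.594, 0.586 and 0.172. SNHG8 stood at 18.4 and 20.3 CPM in control and 17.3 and 16.4 with gemcitabine, without overlap between the groups. These 3 genes have the largest overlaps with a gene of the opposite strand, with SNHG16, which was called, next at 28.5%. The part of this overlap in the result was not tested.

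In PANC1 gemcitabine raised 3 of the 9 tested host genes and lowered none, beside 7.52% of all 16909 genes called and 4.49% called higher. This share rests on few libraries: the 1272 genes called became 66 without gemcitabine replicate I, 64 without gemcitabine replicate II and 442 with the replicate block, when 2, 2 and 3 of the 9 members were called. The median log2 change of the 9 was 0.30, beside 0.03 for all genes.

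SNHG15 stood at 41.1 and 35.7 CPM in control, 99.1 and 90.1 with gemcitabine, 33.1 and 33.1 with genistein, and 79.0 and 84.2 with both drugs. All libraries that held gemcitabine lay above all that did not. With gemcitabine alone SNHG15 rose by 1.35 ± 0.11 on the log2 scale (limma-voom adjusted p = 0.00118). Its isoform ENST00000438705 (509 bases) was listed at 25.1 and 28.1 FPKM in control and at 75.2 and 73.4 with gemcitabine.

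SNHG1 stood at 91.2 and 97.1 CPM in control, 206 and 229 with gemcitabine, 84.0 and 98.0 with genistein, and 355 and 326 with both drugs. It rose by 1.25 ± 0.12 with gemcitabine (adjusted p = 0.00222). The isoform ENST00000539921 (1108 bases) was listed at 13.4 and 28.9 FPKM in control, 114.6 and 112.9 with gemcitabine and 179 and 169 with both, while the isoform ENST00000539975 (955 bases) was listed at 34.5 and 25.9, 58.9 and 76.9, and 141 and 120. In MiaPaCa2 the first of these isoforms lay between 0.00482 and 33.6 FPKM in all 8 libraries.

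SNHG8, host of a box H/ACA snoRNA, had 11.3 and 10.4 CPM in control, 20.5 and 21.4 with gemcitabine, 6.96 and 9.71 with genistein, and 25.7 and 28.2 with both drugs. It rose by 0.99 ± 0.16 with gemcitabine (adjusted p = 0.0139). Without gemcitabine replicate I the adjusted p was 0.101, and without replicate II it was 0.142, so the call needs both libraries.

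SNHG16 was at 85.6 and 88.8 CPM in control and 61.3 and 66.2 with gemcitabine. The log2 difference of -0.41 ± 0.12 missed the threshold (adjusted p = 0.0712). GAS5 was at 56.7 and 60.0 CPM against 68.1 and 71.8, a difference of 0.30 ± 0.11 (adjusted p = 0.141). The differences of SNHG12, SNHG6, SNHG7 and SNHG5 ran from 0.03 to 0.30 and did not pass.

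**Figure D2:**
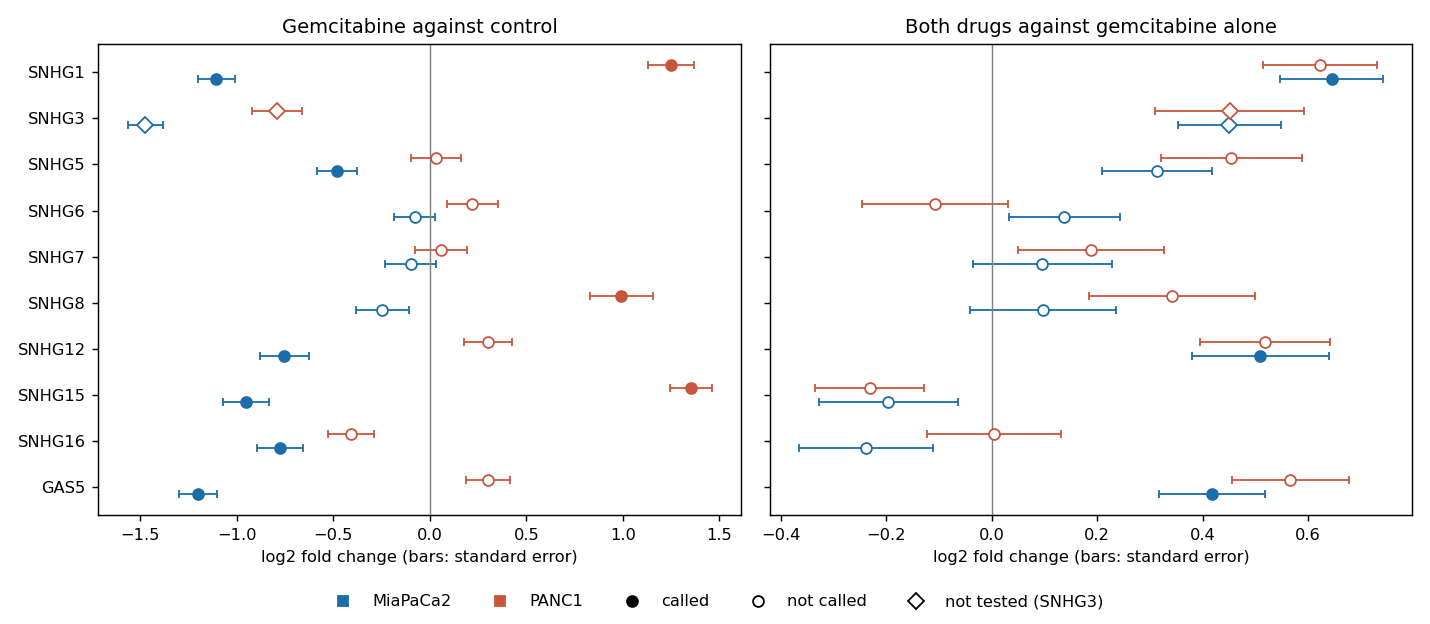
Log2 fold change of each snoRNA host gene (horizontal axis, bars of 1 standard error) with gemcitabine against control (left) and with both drugs against gemcitabine alone (right) in MiaPaCa2 (blue) and PANC1 (red). Filled circles were called, open circles were not and diamonds mark SNHG3, which was not tested; on the left SNHG1 is at -1.11 in MiaPaCa2 and 1.25 in PANC1.

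The gemcitabine response itself differed between the lines for 5 of the 9 tested host genes, all with the higher value in PANC1, beside 15.3% of all 17863 genes and 6.21% higher in PANC1. These tests used 1 model of all 16 libraries and the adjusted p alone. The PANC1 minus MiaPaCa2 difference of log2 changes was 2.26 ± 0.14 for SNHG1 (limma-voom adjusted p = 4.74e-06) and 2.21 ± 0.16 for SNHG15 (adjusted p = 1.54e-05). These 2 genes were called lower in MiaPaCa2 and higher in PANC1. The difference was 1.41 ± 0.13 for GAS5 (adjusted p = 8.09e-05), 1.14 ± 0.21 for SNHG8 (adjusted p = 0.00466) and 0.96 ± 0.16 for SNHG12 (adjusted p = 0.0028).

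For SNHG5 the difference of 0.42 ± 0.16 did not pass (adjusted p = 0.0886). It also did not pass for SNHG16 at 0.27 ± 0.16, SNHG6 at 0.20 ± 0.15 or SNHG7 at 0.06 ± 0.21. SNHG3 was at 0.59 ± 0.13 in the same measure, without a test.

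The SNHG8 difference was 0.68 with the GC correction (adjusted p = 0.129), which ended its call, while the other 4 kept theirs and SNHG7 passed as well. Over all genes 2728 differences became 4593. Exon GC was 39.2% in SNHG8, 42.1% in SNHG1 and GAS5, 50.2% in SNHG15, 51.1% in SNHG12 and 59.3% in SNHG7. Between the 2 control replicates of PANC1, log2 CPM differences over all genes correlated with GC content at a Spearman rho of 0.725. The rho was 0.551 between its gemcitabine replicates, and -0.709 between its both-drug replicates, which are not in this contrast. The part of GC content in the SNHG8 result was not tested.

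With genistein alone, limma-voom called none of the tested host genes in either line. In MiaPaCa2, limma-voom called 0 of 9, beside 8.31% of all genes, with 3 at an unadjusted p under 0.05. edgeR's and DESeq2's tests also called 0 there. The log2 changes ran from -0.31 to -0.02. The largest of these was SNHG16, at 92.1 and 92.0 CPM in control and 67.2 and 82.0 with genistein (-0.31 ± 0.12, adjusted p = 0.101). Without genistein replicate II, SNHG16 was called.

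In PANC1 limma-voom called 0 of 9, beside 0.0591% of all genes, with 2 at an unadjusted p under 0.05. edgeR called 0 and DESeq2 called 1, SNHG7, beside 12 and 754 of all genes. SNHG7 was at 30.4 and 24.9 CPM in control and 18.4 and 18.5 with genistein, a log2 difference of -0.52 ± 0.14 (limma-voom adjusted p = 0.139). The other 8 ran from -0.36 to 0.38. The difference of the genistein responses between the lines did not pass for any of the 9 with limma-voom, beside 0.0336% of all genes. Of the 9, 3 had an unadjusted p under 0.05, and 0 passed with edgeR and with DESeq2. The differences ran from -0.55 ± 0.22 for SNHG7 to 0.42 ± 0.13 for GAS5. With so few genes passing, this does not show that the responses were equal.

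Adding genistein to gemcitabine raised 3 of the 9 tested host genes in MiaPaCa2 against gemcitabine alone, beside 5.88% of all genes called and 4.05% called higher. This step shares its gemcitabine libraries with the comparison of gemcitabine against control, so a fall there and a rise here are not independent. SNHG1 had 48.9 and 47.1 CPM with gemcitabine and 78.0 and 73.0 with both drugs, and rose by 0.64 ± 0.10 on the log2 scale (limma-voom adjusted p = 0.00271). SNHG12 had 14.99 and 16.6 against 22.4 and 22.7 CPM and rose by 0.51 ± 0.13 (adjusted p = 0.035). GAS5 had 65.5 and 70.3 against 87.0 and 95.1 CPM and rose by 0.42 ± 0.10 (adjusted p = 0.0262).

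All these both-drug levels stayed below the control levels of the same genes. SNHG5 had 71.1 and 76.5 CPM with gemcitabine and 85.1 and 99.4 with both (0.31 ± 0.10, adjusted p = 0.0883). SNHG15 and SNHG16 were at -0.20 ± 0.13 and -0.24 ± 0.13, with adjusted p of 0.398 and 0.276. These calls depended on single libraries and on the fit. With the replicate block 1 of 9 was called, SNHG1, when 945 calls over all genes became 617. Leaving out any one gemcitabine or both-drug library also changed how many members were called. Such a fit leaves a single library in a group, and the number of all genes called changed with it.

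In PANC1 the same step gave 0 of 9 called with limma-voom, beside 0.0177% of all genes, with 4 at an unadjusted p under 0.05. DESeq2 called 2 and edgeR called 0, beside 207 and 3 of all genes. SNHG1 was at 206 and 229 CPM with gemcitabine and 355 and 326 with both, without overlap, at 0.62 ± 0.11 (adjusted p = 0.117). GAS5 was at 68.1 and 71.8 against 107.1 and 103.3 CPM, at 0.57 ± 0.11 (adjusted p = 0.119). SNHG12 was at 22.5 and 23.5 against 31.98 and 34.9 CPM, at 0.52 ± 0.12 (adjusted p = 0.152). SNHG5 was at 0.45 ± 0.13 (adjusted p = 0.221).

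The change with both drugs minus the sum of the single-drug changes was computed for every host gene as a description, since this contrast served to choose SNHG3. In MiaPaCa2 it was 0.98 ± 0.13 for SNHG3, 0.88 ± 0.13 for SNHG1, 0.68 ± 0.14 for GAS5, 0.57 ± 0.18 for SNHG12 and 0.38 ± 0.15 for SNHG5. The other 5 lay between -0.13 and 0.17. In PANC1 the higher values were those of SNHG7 at 0.71 ± 0.20, SNHG8 at 0.70 ± 0.24, SNHG12 at 0.69 ± 0.18 and SNHG1 at 0.64 ± 0.17, with GAS5 at 0.36 ± 0.16 and SNHG3 at 0.32 ± 0.19. The other 4 lay between -0.07 and 0.07. The median of the same measure over all genes was -0.01 in MiaPaCa2 and -0.06 in PANC1.

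**Figure D3:**
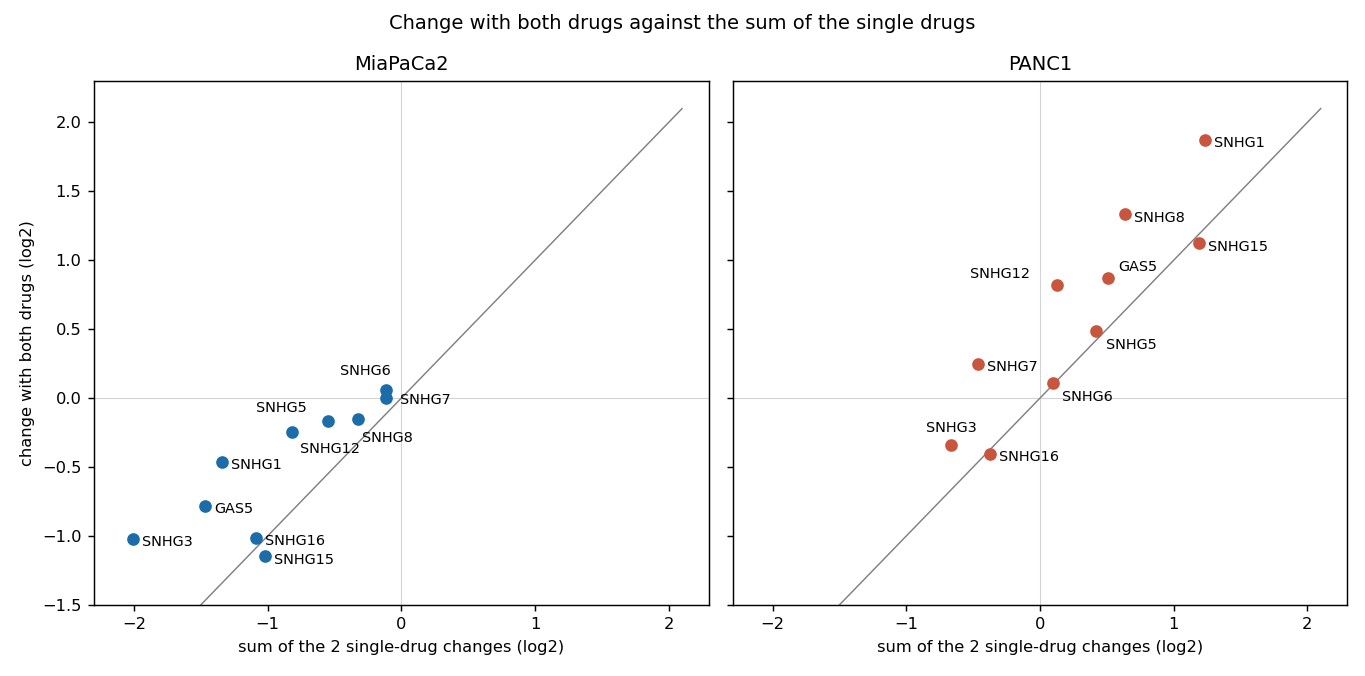
Log2 change with both drugs against control (vertical axis) plotted against the sum of the log2 changes with gemcitabine and genistein alone (horizontal axis) for the 10 host genes in MiaPaCa2 (left) and PANC1 (right), with the line of equality in grey. Points above the line have a both-drug level above the sum, and SNHG3 in MiaPaCa2 is at -1.02 against a sum of -2.01.

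Before any drug, 4 of the 9 tested host genes were lower in PANC1 than in MiaPaCa2 and none was called higher, beside 52.2% of all 17863 genes called and 24.3% called lower in PANC1. GAS5 had 157 and 144 CPM in MiaPaCa2 and 56.7 and 60.0 in PANC1, a log2 difference of -1.36 ± 0.09 (limma-voom adjusted p = 3.23e-08). SNHG3 had 114.5 and 112.1 against 46.7 and 48.6 CPM, a difference of -1.25 ± 0.09 that was not tested.

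SNHG8 differed by -0.83 ± 0.15 (adjusted p = 0.000328), SNHG5 by -0.81 ± 0.11 (adjusted p = 2.11e-05) and SNHG12 by -0.41 ± 0.11 (adjusted p = 0.00515). SNHG7, at -0.36 ± 0.14 (adjusted p = 0.0438), passed the p but not the fold threshold. SNHG1, SNHG6, SNHG15 and SNHG16 ran from -0.11 to 0.12 and did not pass. The SNHG12 value dropped below the fold threshold without control replicate II of either line, at -0.35. In bulk RNA, fewer cells of a kind and less RNA per cell cannot be told apart.

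Levels between genes were compared per length, on the FPKM of the isoforms that the annotation lists (mean ± SD, n = 2). In untreated MiaPaCa2 GAS5 came first at 342 ± 11.03, followed by SNHG5 at 328 ± 15.8, which did not differ from it beyond the spread. SNHG6 followed at 185 ± 2.69. SNHG1 at 99.2 ± 3.13, SNHG8 at 89.5 ± 5.82 and SNHG16 at 74.8 ± 0.446 came next. SNHG7 at 58.0 ± 0.940, SNHG15 at 56.7 ± 1.97, SNHG3 at 49.2 ± 3.15 and SNHG12 at 33.8 ± 5.82 were the lowest, with SNHG7 and SNHG15 not separated by their spread.

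In untreated PANC1 the order began with SNHG6 at 204 ± 14.4 and SNHG5 at 198 ± 22.4, which overlapped, and GAS5 at 126 ± 1.41. SNHG1 was at 97.7 ± 8.10, SNHG16 at 73.8 ± 5.83 and SNHG15 at 58.9 ± 4.05. SNHG7 at 50.7 ± 4.48 and SNHG8 at 49.0 ± 2.23 overlapped, as did SNHG3 at 25.6 ± 1.287 and SNHG12 at 24.9 ± 1.42.

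The deposited FPKM per gene gave a different picture, because it adds up more isoforms than the annotation used here lists. The 10 genes have 142 isoform entries, of which 29 are absent from that annotation. The type of the unlisted entries was not analysed here. Their share of the summed FPKM of SNHG1 was 42.8% to 88.5% over the 16 libraries (median 65.9%). The highest share in a library was 61.6% in GAS5, 69.2% in SNHG12 and 55.6% in SNHG16.

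These unlisted entries moved between replicates. In untreated MiaPaCa2 the gene FPKM of SNHG1 was 885 in replicate I and 260 in replicate II, whereas the listed isoforms summed to 101.4 and 97.0 and the CPM was 100.6 and 98.6. SNHG16 with genistein in MiaPaCa2 had 56.5 and 160 FPKM per gene, but 56.5 and 70.9 over listed isoforms. Over the 80 combinations of gene and group, the largest ratio between replicates was 3.40 for gene FPKM, 1.46 for listed isoforms and 1.40 for CPM, with medians of 1.20, 1.09 and 1.08.

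**Figure D4:**
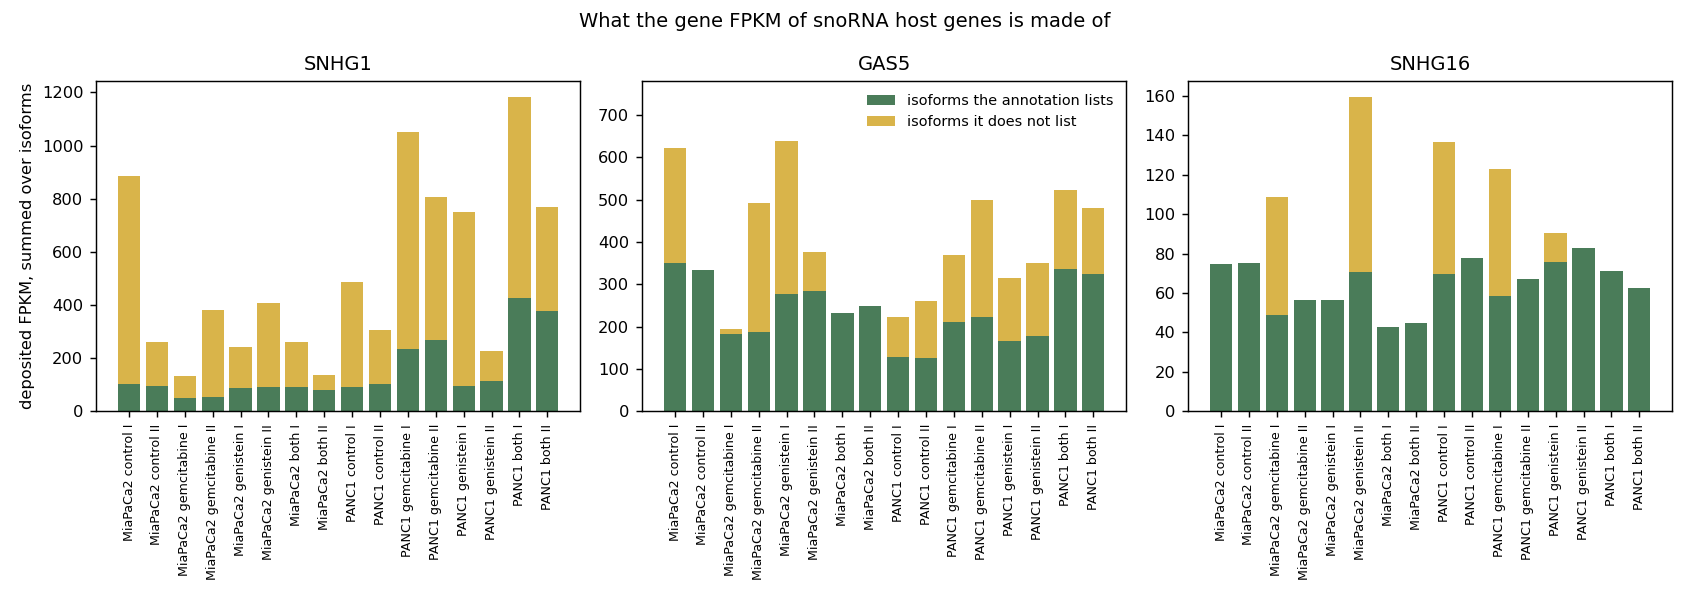
Deposited FPKM of SNHG1, GAS5 and SNHG16 (vertical axis, from 0) in each of 16 libraries, stacked as isoforms that the annotation lists (green) and isoforms that it does not list (yellow). For SNHG1 in untreated MiaPaCa2, the 2 replicates total 885 and 260, while their green parts are 101.4 and 97.0.

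Other host genes were read for comparison. Of 19 further noncoding hosts 10 were in the table, and 8 in MiaPaCa2 and 9 in PANC1 passed the low-count filter. With gemcitabine 3 of 8 fell and none rose in MiaPaCa2 (SNHG17 by 0.73, SNHG10 by 0.68 and ZFAS1 by 0.42 on the log2 scale), beside 29.6% of all genes called, with a list median of -0.33. In PANC1 3 of 9 rose (ZFAS1 by 1.25, SNHG17 by 1.07 and EPB41L4A-AS1 by 0.94) and 1 fell, beside 7.52% of all genes, with a median of 0.44. The response differed between the lines for 4 of 9, beside 15.3% of all genes, with SNHG17 (1.70), ZFAS1 (1.58) and EPB41L4A-AS1 (1.13) higher in PANC1 and 1 lower. Genistein alone gave no call in this list in either line, beside 8.31% of all genes in MiaPaCa2 and 0.0591% in PANC1. Its addition to gemcitabine gave no call either, beside 5.88% of all genes in MiaPaCa2 and 0.0177% in PANC1. Untreated, 2 of 9 were higher in PANC1 and 4 lower, beside 52.2% of all genes called, with EPB41L4A-AS1 at -1.30, DANCR at -1.15 and MEG8 at 43 and 96 reads in PANC1 against 0 and 0 in MiaPaCa2.

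Protein-coding hosts, mostly genes of ribosomal proteins and of RNA handling, numbered 35. With gemcitabine 13 of 35 fell and none rose in MiaPaCa2, beside 29.6% of all genes called and 14.6% lower, led by RABGGTB (-1.61), WDR43 (-0.99) and EIF4A2 (-0.98), with a list median of -0.27. In PANC1 3 fell, among them HSPA8 by 0.84 and RPL3 by 0.48, and 1 rose, beside 7.52% of all genes, with a median of -0.19. The difference of the responses passed for 9 of 35, all higher in PANC1, beside 15.3% of all genes and 6.21% higher, led by RABGGTB at 1.86, WDR43 at 0.89 and IPO7 at 0.82. Genistein lowered 1 of 35 in MiaPaCa2 (EIF4A2 by 0.54) and 0 in PANC1, beside 8.31% and 0.0591% of all genes called. Its addition to gemcitabine lowered 1 in MiaPaCa2 (WDR43 by 0.66) and 0 in PANC1, beside 5.88% and 0.0177% of all genes called. Untreated PANC1 had 22 lower and 2 higher than MiaPaCa2, beside 52.2% of all genes called and 24.3% lower, led by RPL13A at -2.39, TPT1 at -1.66 and EEF2 at -1.60.

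The snoRNP list holds 17 proteins that bind, assemble or modify with snoRNAs. With gemcitabine 6 of 17 fell and none rose in MiaPaCa2, beside 29.6% of all genes called and 14.6% lower, led by the box C/D core protein NOP58 (-1.36) and by the H/ACA pseudouridine synthase DKC1 (-0.75) and its partner GAR1 (-0.72). In PANC1 1 rose, the H/ACA assembly factor NAF1 (0.69), and none fell, beside 7.52% of all genes. The response differed for 6 of 17, all higher in PANC1, beside 15.3% of all genes and 6.21% higher, led by NOP58 (1.55), ZNHIT6 (1.07) and NAF1 (0.81). Genistein lowered NOP58 by 0.82 and raised RUVBL1 by 0.45 in MiaPaCa2, beside 8.31% of all genes. It gave no call in PANC1, beside 0.0591% of all genes. Its addition to gemcitabine gave no call in either line, beside 5.88% of all genes in MiaPaCa2 and 0.0177% in PANC1. Untreated, 4 of 17 were higher and 5 lower in PANC1, a share like the 52.2% of all genes called, with the methyltransferase fibrillarin, FBL, at 3.61, ZNHIT6 at 1.67 and ZNHIT3 at -0.86.

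Factors of nonsense-mediated decay numbered 14. With gemcitabine 2 of 14 fell in MiaPaCa2, the kinase SMG1 by 0.80 and UPF2 by 0.62, beside 29.6% of all genes called, and 1 rose in PANC1, UPF3B by 1.12, beside 7.52%. The response differed for 4 of 14, beside 15.3% of all genes, with 3 higher in PANC1 (UPF3B at 1.12, SMG1 at 1.04 and SMG9 at 0.82) and 1 lower. Genistein raised 2 in MiaPaCa2, SMG5 by 0.73 and CASC3 by 0.41, and its addition to gemcitabine lowered 1, UPF2 by 0.52, beside 8.31% and 5.88% of all genes. PANC1 gave no call with genistein or its addition, beside 0.0591% and 0.0177% of all genes. Untreated, 3 of 14 were higher in PANC1, led by CASC3 at 0.98, and 2 were lower, UPF2 at -0.73 and SMG8 at -0.64, fewer than the 52.2% of all genes called.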

How the data were processed

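Poly-A RNA of MiaPaCa2 and PANC1 cells was sequenced from 16 libraries. The deposited read counts per gene are whole numbers with no normalization. The authors also deposited FPKM per gene and per isoform, already scaled to length and library size. The submitters' processing notes name TopHat2 2.0.4, SAMtools, Picard 1.29, HTSeq 0.6.1 and Cufflinks 2.1.1 with GRCh37. The annotation release and the counting's strand setting are not given in the sources used here.

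Counts were TMM-scaled and low-count genes were removed with filterByExpr (edgeR 4.0.16). Groups were compared with limma-voom (limma 3.58.1, R 4.3.3), with the 8 libraries of a line in 1 model, or all 16 for comparisons between lines. Benjamini-Hochberg adjustment ran over all genes tested. The members and lists were chosen with earlier results of these data known. SNHG3 was planned to be tested between the untreated lines but is only described there, since the control libraries enter the interaction it was chosen for. Named genes are the members, up to 3 called genes per list and comparison with the largest change, the 5 genes most like SNHG3, overlapping genes and snoRNAs inside members. A few items under this rule are left out of the text. Positions, isoforms and GC content came from GENCODE v44 lifted to GRCh37. Depth was 12943482 to 31991860 counted reads, and 2 replicates per group limit the precision of a single gene. Alternatives were edgeR's quasi-likelihood test, DESeq2 1.42.0, other scalings, no filter, limma-trend on log2(FPKM + 1) and log2(FPKM + 0.1), the replicate block, GC correction (loess, span 0.3), other sets of libraries and each replicate left out. FPKM of listed isoforms alone was added after values were seen. The procedure was tested on simulated counts, which lack the trends with GC content seen between the real replicates.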

Additional observations from a re-analysis of the deposited data

Results flagged for a closer look

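The gemcitabine response differed between PANC1 and MiaPaCa2 by a test of the difference itself (limma-voom, all 16 libraries) for 5 host genes. The differences of log2 changes, PANC1 minus MiaPaCa2, were 2.26 for SNHG1, 2.21 for SNHG15, 1.41 for GAS5, 1.14 for SNHG8 and 0.96 for SNHG12. SNHG1 and SNHG15 were called in opposite directions in the lines. SNHG8 was the gene among them that lost its call with the GC correction.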

How the results depend on the processing

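On log2(FPKM + 1) and log2(FPKM + 0.1) the 6 members called with gemcitabine in MiaPaCa2 became 2 and 2. Over all genes 4747 calls became 2774 and 2874. The 3 called with both drugs against gemcitabine there became 0 and 0, when 945 over all genes became 19 and 13. The 3 called with gemcitabine in PANC1 became 1 and 1, when 1272 over all genes became 464 and 514. The 4 called between untreated lines became 2 and 2, when 9330 over all genes became 9040 and 9160. The 5 gemcitabine response differences became 2 and 2, when 2728 over all genes became 1352 and 1202. On these 2 scales the interaction value of SNHG3 was 0.71 and 0.73 in MiaPaCa2 and 0.22 and 0.24 in PANC1. Directions reversed there for SNHG16 with gemcitabine in MiaPaCa2 (0.0673 and 0.0672), and, for both drugs against gemcitabine in MiaPaCa2, for SNHG1 (-0.24 and -0.24) and GAS5 (-0.36 and -0.36). The replicates of gene FPKM were themselves up to 3.40-fold apart.

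On FPKM of listed isoforms, the count with both drugs against gemcitabine in MiaPaCa2 was 0, when 945 calls over all genes became 18. There 1 genistein response difference passed in place of 0, and over all genes 17 in place of 6. The SNHG3 interaction value in PANC1 was 0.82 on that scale. SNHG3 with genistein in PANC1 was -0.11 on that scale, -0.0351 with the GC correction and -0.034 with the GC correction and replicate block, against 0.13. DESeq2 called 1 member with genistein in PANC1 and 2 with both drugs against gemcitabine there, beside 754 and 207 of all genes. For that last comparison limma-voom called 0 members. That became 4 with the GC correction, 3 with the GC correction and replicate block and 4 with all 16 libraries in 1 model. Over all genes 3 calls became 1191, 731 and 485 in these settings. The SNHG3 interaction value in PANC1 was 0.43 with the GC correction and 0.43 with the block added. The cause was not tested for these.

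The replicate numbers I and II showed no shared deviation on average. Deviations of same-numbered libraries from their group means correlated at -0.05 on average over 6 pairs of groups in MiaPaCa2 and -0.07 in PANC1. Single pairs ran from -0.227 to 0.125 in MiaPaCa2 and from -0.52 to 0.295 in PANC1. Replicate differences that follow GC content were not removed first, so this check cannot exclude a pairing. With the replicate block 1 member was called in place of 3 for both drugs against gemcitabine in MiaPaCa2. SNHG12 and GAS5 then had adjusted p of 0.0592 and 0.0553 (limma-voom), and 617 of all genes were called in place of 945. The SNHG12 difference between untreated lines was -0.38 with the block.

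Leaving out each replicate in turn, the called members ranged from 6 to 6 with gemcitabine, 0 to 1 with genistein and 0 to 4 with both drugs against gemcitabine in MiaPaCa2. They ranged from 2 to 3 with gemcitabine in PANC1, 3 to 5 between untreated lines and 5 to 6 for the gemcitabine response difference. The number of all genes called also changed in these fits, which leave a single library in a group. The interaction value of SNHG3 ran from 0.93 to 1.06 in MiaPaCa2 and from 0.22 to 0.42 in PANC1. Scaling by library size alone moved the median of all genes by 0.107 (log2) with gemcitabine in MiaPaCa2 and 0.111 in PANC1, and took SNHG5 with gemcitabine in MiaPaCa2 to -0.38, below the fold threshold. SNHG16 with gemcitabine in PANC1 was called with DESeq2, the GC correction with or without the block and all 16 libraries. Of 60 member values that missed the thresholds, 13 were called in some setting, 32 changed sign in some setting and 23 did so in settings that use no FPKM, so the directions of such values are not settled.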
